A study of Mus musculus with 8 samples.

Results

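Part of the array used here does not target named genes but stretches of the mouse genome between them. These probes carry the name of an interval of the mm9 build and a strand, F (forward) or R (reverse), and the array's annotation describes them as long intergenic noncoding RNA (lincRNA) probes. All probes with such a name on chromosomes 1 to 19 that are no control were taken. They numbered 15604 of the 55681 probes of the array, 7890 on F and 7714 on R, each 60 bases long and spotted once. They covered 3387 intervals of 62 to 7128487 bases (median 7451), of which 1042 had probes on both strands, 1189 on F alone and 1156 on R alone. An interval on 1 strand held 1 to 10 probes (median 3), and there were 4429 such strand intervals. A further 590 interval probes on chromosome X or without a strand were left aside.

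The study compared lumbar dorsal root ganglia (DRGs), L3 to L5, of a mouse model of Fabry disease (FD), an X-linked lysosomal storage disorder in which α-galactosidase A is missing and glycosphingolipids build up in sensory neurons and other cells. FD samples came from male α-Gal A(-/0) mice on a C57BL/6 background and wildtype samples from male C57BL/6J mice, all aged 20 to 24 weeks. Each group had 4 samples, each sample the pooled DRGs of 2 mice, and the 8 samples filled the 8 arrays of 1 slide in 1 colour. The α-Gal A(-/0) disruption is carried by every cell of the animal, and FD and wildtype mice came from separate inbred colonies, so genotype and colony cannot be told apart in any comparison here.

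Long intergenic noncoding RNAs are transcripts without a protein-coding frame that lie outside known genes. Some act near the place where they are made and others act elsewhere in the cell, many are retained in the nucleus, and many are present at few copies per cell. Divergent transcription from a promoter also gives short-lived antisense RNA, which the nuclear RNA exosome, a complex of RNA-degrading enzymes, removes. An interval may in addition hold an unannotated end of a neighbouring gene or a processed pseudogene, a copy of an mRNA that was reverse transcribed into the genome.

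A selection of probes from loci with large changes is shown first, together with some probes that share bases with them. Intervals that hold a named gene's probe on their own strand were left out, among them those of Gm4924 and Zfp932 described below. The sequences are written 5′ to 3′ as on the array. Capitals mark bases that at least 1 other probe of the array also holds in a run of 20 or more bases, on either strand.  The first set comes from 1 locus on chromosome 17, between the genes Gnl1 and H2-T24, where the F and the R probe at base 36131418 cover nearly the same bases on opposite strands.
chr17:36131460-36136694_F, bases 36135888 to 36135947: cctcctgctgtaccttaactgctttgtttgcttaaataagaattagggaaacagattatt
chr17:36136010-36136696_F, bases 36136116 to 36136175: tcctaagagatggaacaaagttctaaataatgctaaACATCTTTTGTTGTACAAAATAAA
chr17:36130717-36137617_F, bases 36131418 to 36131477: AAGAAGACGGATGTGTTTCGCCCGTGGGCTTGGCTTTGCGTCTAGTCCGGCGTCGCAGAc
chr17:36130717-36137617_R, bases 36131417 to 36131476: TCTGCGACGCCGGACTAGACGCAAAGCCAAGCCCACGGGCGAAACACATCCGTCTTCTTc
The next set holds other large falls away from the probes of named genes, with an F and an R probe of 1 interval on chromosome 6 that share 57 bases on opposite strands.
chr2:151343784-151344246_F, bases 151343937 to 151343996: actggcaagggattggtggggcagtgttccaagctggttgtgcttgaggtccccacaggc
chr6:90745692-90777977_F, bases 90760118 to 90760177: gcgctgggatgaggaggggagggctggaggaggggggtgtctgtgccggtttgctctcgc
chr6:47595238-47601893_F, bases 47601669 to 47601728: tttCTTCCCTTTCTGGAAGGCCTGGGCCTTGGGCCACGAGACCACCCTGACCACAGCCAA
chr6:47595238-47601893_R, bases 47601672 to 47601731: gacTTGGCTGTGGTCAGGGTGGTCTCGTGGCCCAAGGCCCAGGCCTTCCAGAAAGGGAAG
The last set holds large rises. The probe on chromosome 6 shares 34 bases with the chr17:6602100-6615425_R probe, whose interval holds the probe of the gene Dynlt1f on the other strand, and the chr17:6455677-6476228_F probe shares 56 bases with a probe of chr17:6265275-6362150_R.
chr17:6830756-6832322_R, bases 6831039 to 6831098: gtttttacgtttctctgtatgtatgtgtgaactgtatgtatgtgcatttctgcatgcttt
chr17:6455677-6476228_F, bases 6457777 to 6457836: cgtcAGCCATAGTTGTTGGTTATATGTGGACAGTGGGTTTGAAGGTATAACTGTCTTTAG
chr17:6602100-6615425_R, bases 6607549 to 6607608: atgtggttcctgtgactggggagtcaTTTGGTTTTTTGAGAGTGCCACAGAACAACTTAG
chr6:135294099-135300310_F, bases 135299310 to 135299369: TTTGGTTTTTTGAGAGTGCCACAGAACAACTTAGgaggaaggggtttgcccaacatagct

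The interval probes were detected less often than the rest of the array. On single arrays, 35.9% to 42.2% of them were well above background by the scanner software, beside 64.5% to 68.1% of all other probes. Of the 15604, 4845 (31%) were well above background on all 8 arrays and could be tested, 3398 on some arrays and 7361 on none. Of the other 40077 probes, 61.3% passed the same filter. The share that passed was 29.2% on F and 33% on R. It ranged from 27% in intervals of up to 1 kb to 34.1% in intervals of over 50 kb, and the median GC content of the probes that passed and of those that did not was 45%. Among the 1042 intervals with both strands, both were tested in 392, F alone in 193, R alone in 243 and neither in 214. No spot was saturated.

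Detection differed between arrays, as the plot of detection by array shows. Slide row and group overlap in this design, and their parts in detection were not tested. The slide had 2 rows of arrays, with 3 FD samples and 1 wildtype sample in row 1 and 1 FD and 3 wildtype samples in row 2. Of the interval probes, 42.2%, 41.5%, 38.2% and 41.9% were well above background on the row 1 arrays (FD 1, 2, 3 and wildtype 1), and 38.7%, 35.9%, 36.9% and 36.8% on the row 2 arrays (FD 4, wildtype 2, 3 and 4). For the probes with the largest changes the difference is therefore given also within each row, where 1 of the groups is a single sample.

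**Figure D1:**
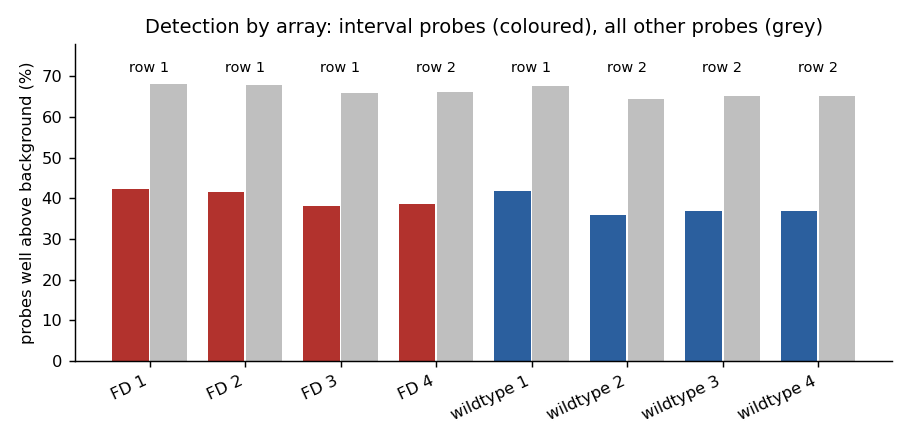
Share of probes well above background on each of the 8 arrays, in percent, with the row of the array on the slide above the bars. Coloured bars are the 15604 interval probes (red FD, blue wildtype) and grey bars all other probes; interval probes sit between 35.9% and 42.2% and all other probes between 64.5% and 68.1%.

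The disrupted gene itself could not check the labels. Gla, which encodes α-galactosidase A, had 1 probe, with normalised log2 intensities of 16.51 to 16.71 in FD and 16.49 to 16.72 in wildtype samples, and the sources do not say whether the probe lies in the disrupted part. The markers of the labelled tissue were detected: 12 of 12 sensory neuron genes, 5 of 5 satellite glia genes and 6 of 6 Schwann cell genes were tested, and of these 23 genes Tac1, which encodes substance P, alone was called (log2 difference 0.34). Of 6 markers of spinal cord and oligodendrocytes 3 were tested, of 4 of skeletal muscle 1, of 3 of fat 1, and all 4 of macrophages, 3 of endothelium, 3 of fibroblasts and 3 of erythrocytes, and none of these was called by limma or by the methods' t-test. At an unadjusted p under 0.05, 3 Schwann cell genes and 2 erythrocyte genes were lower, as was 1 gene each of endothelium, fibroblasts and fat, while 3 sensory neuron genes were higher and 4 lower. Of the macrophage and of the spinal cord genes 1 was higher and 1 lower, and 0 of the satellite glia and muscle genes passed. Single samples stood apart in 2 of them, with Hoxb8 at 11.95 in wildtype 1 and 6.10 to 7.95 in the other samples, and Cfd, the fat cell gene adipsin, at 10.56 and 9.98 in wildtype 2 and 3; their part in the results below was not tested. In bulk ganglia, fewer cells of a type and less RNA per cell cannot be told apart.

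The first comparison asked which interval probes differed between FD and wildtype DRGs. With limma on all tested probes of the array, 133 of the 4845 interval probes were called at an adjusted p under 0.05, 92 higher and 41 lower in FD. That was 2.75% of those tested, beside 904 of 29432 (3.07%) over the whole array, of which 1.96% were higher and 1.11% lower. The median log2 difference was 0.036 over the interval probes and 0.019 over all probes. None of the 133 had overlapping groups. Groups did not overlap in 498 interval probes (10.3%), beside 13.4% of all tested probes. By the fold change and p filters of the study's methods, at least 1.2-fold and p at most 0.01, here with limma, 287 passed (5.92%, beside 6.03% of all probes). Most changes were small: 81 of the 133 were under 1.5-fold, while 16 were more than 2-fold higher and 7 more than 2-fold lower.

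The 133 probes lay in 101 strand intervals and 97 intervals, which merged where they overlapped into 87 loci, 60 with higher and 27 with lower probes and 0 with both. Of the loci, 60 rested on 1 probe and 12 on 3 or more. The share of tested interval probes that were called was highest on 4 chromosomes. It was 5.83% on chromosome 17 (19 of 326), 5.88% on chromosome 19 (7 of 119), 5.41% on chromosome 4 (17 of 314) and 5.26% on chromosome 16 (10 of 190). Shares over all array probes of each chromosome were not counted, so nothing particular to interval probes is read from these. With the slide row as a block in the fit, 128 were called, 77 higher and 51 lower, of which 82 were also called without it. With 1 sample left out the number changed: it was 69, 62, 74 and 80 without FD 1, 2, 3 and 4. It was 85 without wildtype 4 and 93 to 149 without each of the other wildtype samples. Calls over the whole array changed as well. Without FD 1 to 4, 1.42%, 1.28%, 1.52% and 1.64% of interval probes were called, beside 1.49%, 1.39%, 1.66% and 1.6% of all tested probes. Without wildtype 4 it was 1.73% beside 1.79%. The methods' t-test called 24 (0.495%), beside 0.904% of all tested probes.

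**Figure D2:**
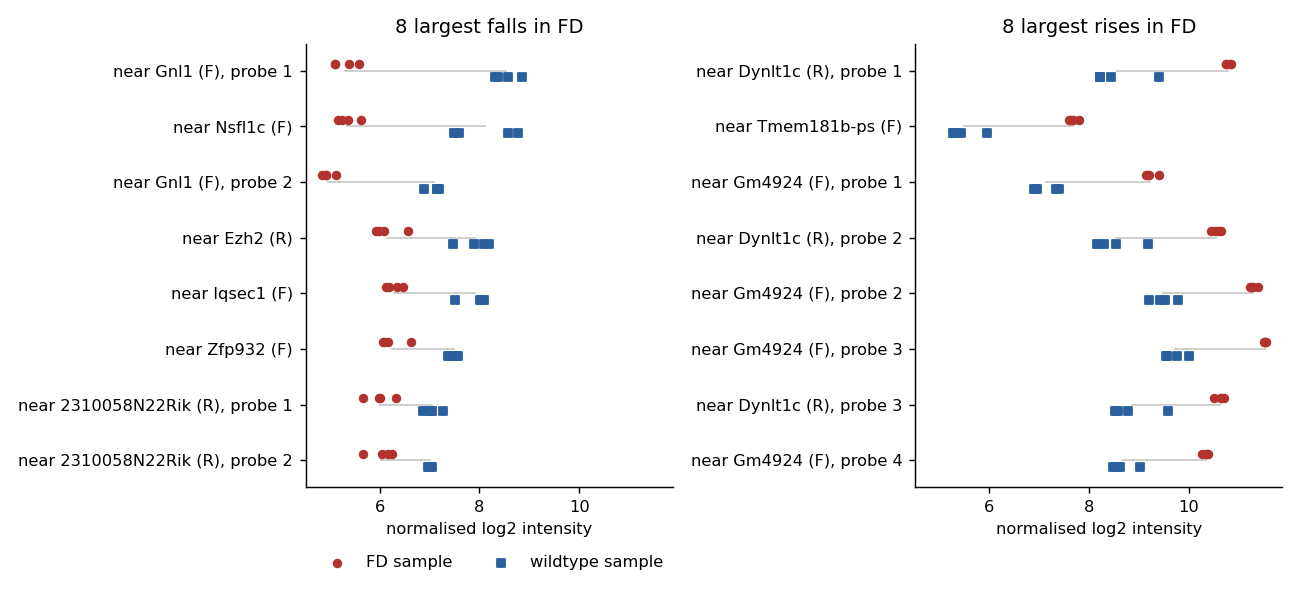
Normalised log2 intensity of the 8 interval probes with the largest fall (left) and the 8 with the largest rise (right) in FD, named by the nearest tested gene and the strand of the interval. Red circles are the 4 FD samples, blue squares the 4 wildtype samples and grey lines join the group means; in all 16 the groups do not overlap.

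The largest fall of a single probe came from the locus between Gnl1, which encodes a GTP-binding protein, and H2-T24, a nonclassical class I gene of the major histocompatibility complex. The F probe of chr17:36131460-36136694 starting at 36135888 had log2 intensities of 5.59, 5.11, 5.38 and 5.11 in FD 1 to 4 and of 8.86, 8.32, 8.38 and 8.58 in wildtype 1 to 4. It was 9.44-fold lower in FD (log2 difference -3.24, SE 0.15, adjusted p = 9.71e-06 in limma). The F probe of chr17:36130717-36137617 had 5.13, 4.93, 4.93 and 4.85 in FD and 7.14, 7.14, 6.89 and 7.19 in wildtype samples, a log2 difference of -2.13 (SE 0.087, adjusted p = 5.72e-06). Both groups of both probes were tight and far apart. Within slide rows 1 and 2 the differences were -3.50 and -3.32 for the first probe and -2.15 and -2.23 for the second.

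Of the other probes of this locus, 4 were detected in all wildtype samples and in no FD sample. The locus held 5 F and 2 R probes, and 3 further F probes were well above background on all 4 wildtype arrays and on no FD array, so only a bound can be given. The chr17:36136010-36136696_F probe had 7.68, 7.15, 7.38 and 7.47 in wildtype samples and was at least 7.56-fold higher there than in FD, where the signal of 3.04 to 3.83 was not well above background (adjusted p = 2e-05 in limma with probes kept at 4 of 8 arrays). The remaining pair of F probes, starting at 36135828 and 36136152, were at least 4.42-fold and 4.21-fold higher in wildtype. The R probe starting at 36131417, which covers 59 bases of the called F probe on the other strand, also reached 4.77 to 5.51 in wildtype and was not well above background in FD, at least 1.60-fold higher in wildtype. The last R probe was well above background on 1 wildtype array and on no FD array. All 5 F probes and 1 R probe were thus well above background on every wildtype array, and 2 F probes on every FD array. With normexp background correction the 3 F bounds dropped to 2.55-fold, 1.83-fold and 1.79-fold.

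The nearest protein-coding neighbours did not move as far. Gnl1, 4.41 kb away, had a log2 difference of -0.06 (adjusted p = 0.788) and H2-T24, 5.05 kb away, one of -0.21 (adjusted p = 0.57). H2-T23, 29.8 kb away, which encodes the class I molecule Qa-1, had -0.28 (adjusted p = 0.0687). H2-T9, 39.6 kb away, a further nonclassical class I gene, was called lower, with 8.02 to 8.20 in FD and 8.50 to 8.87 in wildtype samples (log2 difference -0.60, SE 0.093, adjusted p = 0.0116). Genes of this family are close copies of each other, so their probes may share signal.

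**Figure D3:**
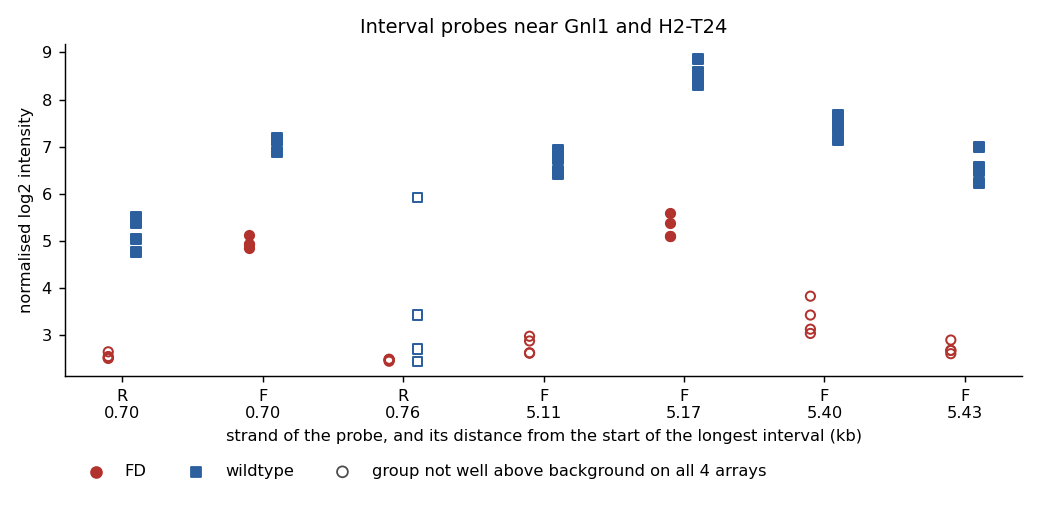
Normalised log2 intensity of the 7 interval probes near Gnl1 and H2-T24, in order of position, with the strand and the distance of each from the start of the longest interval in kb on the x axis. Red circles are FD and blue squares wildtype samples, 4 each, and open symbols mark a group that was not well above background on all 4 arrays; wildtype values lie above FD values for the 5 F probes and for the first R probe.

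Of the other large falls, a pair were single probes. The neighbouring probes could not be tested in the first case and did not follow in the second. The chr2:151343784-151344246_F probe starting at 151343937, near Nsfl1c, had 5.37, 5.25, 5.62 and 5.16 in FD and 7.49, 7.58, 8.77 and 8.58 in wildtype samples (log2 difference -2.76, SE 0.29, adjusted p = 0.0016 in limma). The wildtype samples split into a lower and a higher pair, all above the FD samples. The difference was -2.08 within row 1 and -3.15 within row 2, and the methods' t-test did not call it (adjusted p = 0.0994). The probe just before it on the same strand had 5.30 to 5.69 in FD and 5.04 to 6.28 in wildtype samples and was not tested, being well above background on 3 of the 4 wildtype arrays. The probe just after it was above background on no array. Nsfl1c, a cofactor of the p97 ATPase 6.81 kb away, had a log2 difference of -0.01. The chr6:90745692-90777977_F probe starting at 90760118 had 6.46, 6.35, 6.19 and 6.12 in FD and 7.51, 8.10, 8.03 and 8.01 in wildtype samples (log2 difference -1.63, SE 0.14, adjusted p = 0.000489), and the difference was -1.18 within row 1 and -1.93 within row 2. The F probe just beside it, starting at 90760058, had 7.69 to 7.90 in FD and 7.53 to 7.71 in wildtype samples (log2 difference 0.15, adjusted p = 0.303), and none of the 7 tested R probes of the locus was called. The changes at these 2 intervals rest on 1 probe each.

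Other falls were shared by a neighbour. In chr5:110424250-110443025, which holds the KRAB zinc finger gene Zfp932, both tested F probes fell. The probe starting at 110440018 had 6.63, 6.06, 6.09 and 6.17 in FD and 7.37, 7.45, 7.52 and 7.57 in wildtype samples (log2 difference -1.24, SE 0.12, adjusted p = 0.00126 in limma), and the probe starting at 110440902 had a log2 difference of -0.92 (adjusted p = 0.0017). The first differed by -1.12 within row 1 and -1.35 within row 2, and was not called by the methods' t-test (adjusted p = 0.0797). The gene's own probe, on the same strand, fell by 1.38 on the log2 scale (adjusted p = 8.02e-06). A further F interval within 100 kb, chr5:110261075-110376700, had 1 called probe at -0.87 (adjusted p = 0.000676). In chr12:117623500-117643575 a pair of R probes fell, with log2 differences of -1.05 (adjusted p = 0.00559) and -0.98 (adjusted p = 0.00347), while no F probe there was tested. The methods' t-test called neither (adjusted p = 0.0776 and 0.134). The transcript 2310058N22Rik, 4.28 kb away, fell by 2.14, and Ncapg2, a condensin II subunit 58.2 kb away, rose by 1.49 on the log2 scale (adjusted p = 8.45e-05). Neighbours of this interval thus moved in opposite directions.

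Of the 8 largest rises, 4 lay in a region of chromosome 17 and 4 on chromosome 10. The chromosome 17 region holds several copies of Dynlt1, encoding a dynein light chain, and of Tmem181. All 3 R probes of chr17:6830756-6832322 rose. The probe starting at 6831039 had 10.75, 10.84, 10.83 and 10.74 in FD and 8.43, 9.40, 8.21 and 8.21 in wildtype samples (log2 difference 2.23, SE 0.24, adjusted p = 0.00182 in limma), a 4.68-fold rise. The probes starting at 6831099 and 6831173 rose by 2.0 and 1.76 on the log2 scale. By the methods' t-test none of the 3 was called (adjusted p = 0.126, 0.105 and 0.134). The FD samples lay close together at the first probe, and wildtype 2 stood above the other wildtype samples. Within slide rows 1 and 2 the differences of the first probe were 2.37 and 2.14.

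The same sample stood above the rest of its group across the region. The chr17:6455677-6476228_F probe had 7.64, 7.79, 7.59 and 7.67 in FD and 5.43, 5.95, 5.28 and 5.30 in wildtype samples (log2 difference 2.18, SE 0.14, adjusted p = 9.98e-05), with 2.24 within row 1 and 2.16 within row 2. The probe of chr17:6265275-6362150_R with which it shares 56 bases had 7.54 to 7.67 in FD and 3.99, 6.03, 5.54 and 5.33 in wildtype samples, and was not tested because 1 wildtype array was not well above background. Further called probes were chr17:6306310-6311805_F with a log2 difference of 1.38 (adjusted p = 0.00388), a pair in chr17:6602100-6615425_R with 1.04 and 0.86, and 1 in chr17:6806500-6861042_F with 0.67. Not all tested probes rose. The other tested probe of the first and of the last of these had 0.11 and 0.01. The lowest tested probes were at -0.06 on F near Tmem181a, -0.04 on F near Tmem181b-ps and -0.24 on R near Dynlt1c. Together with the chromosome 6 interval described next, wildtype 2 was the highest wildtype sample in 11 of 12 called probes, beside 41 of all 133. The Tmem181 and Dynlt1 genes of the region rose as well: Tmem181b-ps by 2.35, Dynlt1c by 1.06, Dynlt1f by 1.01 and Tmem181a by 0.56 on the log2 scale, all with adjusted p under 0.05 in limma. Wildtype 2 was again the highest wildtype sample, with 6.96 for Tmem181b-ps beside 5.30 to 5.50 and 13.37 for Dynlt1c beside 12.57 to 12.83. Of the other genes within 100 kb, Ezr rose by 0.42 (adjusted p = 0.0369 in limma). Tulp4 with 0.33 (adjusted p = 0.213) and Sytl3 with -0.02 (adjusted p = 0.915) were not called.

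An interval on another chromosome shares sequence with this region. In chr6:135294099-135300310, 32.8 kb from Emp1, all 3 tested F probes and the tested R probe rose. The F probe starting at 135299310 had 7.68, 7.55, 7.55 and 7.60 in FD and 6.59, 6.92, 6.31 and 6.37 in wildtype samples (log2 difference 1.05, SE 0.13, adjusted p = 0.0032 in limma). It shares 34 bases on the same strand with the chr17:6602100-6615425_R probe, whose log2 difference was 1.04 (adjusted p = 0.00586) and whose interval holds the Dynlt1f probe on the other strand. The other F probes had 1.03 and 0.96 and the R probe 0.48 (adjusted p = 0.0311). Emp1 itself, an epithelial membrane protein gene, had 0.26 (adjusted p = 0.317). Array signal cannot say from which of the 2 chromosomes the RNA came.

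A similar case is chr19:56820850-56837925, 21.6 kb from the adrenergic receptor gene Adrb1. Both R probes rose, by 0.51 (adjusted p = 0.0017) and 0.48 (adjusted p = 0.013), as did 1 of the 2 F probes, by 0.38 (adjusted p = 0.0283). The R probe starting at 56829365 had 14.04, 14, 14.10 and 14.13 in FD and 13.55, 13.77, 13.57 and 13.45 in wildtype samples. It shares a run of 20 bases with a probe of Mif, the macrophage migration inhibitory factor gene on chromosome 10, and the brightest Mif probe also rose, with 15.95 to 16.13 in FD and 15.58 to 15.67 in wildtype samples (log2 difference 0.42, SE 0.058, adjusted p = 0.00644). Adrb1 had -0.26 (adjusted p = 0.37).

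The other 4 of the 8 largest rises were on chromosome 10. The 3 probes of chr10:81816994-81863610_F and the probe of chr10:81846505-81863606_F, which lies within it, rose by 1.68 to 2.09 on the log2 scale. The probe starting at 81817023 had 9.21, 9.19, 9.40 and 9.13 in FD and 7.40, 7.33, 6.89 and 6.96 in wildtype samples (log2 difference 2.09, SE 0.13, adjusted p = 6.1e-05 in limma), with 1.87 within row 1 and 2.07 within row 2. Both intervals hold the probe of Gm4924, a predicted gene, on the same strand, and Gm4924 rose by 1.77 (adjusted p = 5.05e-05). A pair of the interval probes share 43 and 50 bases with the Gm4924 probe, so these readings are not independent of each other.

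Further called intervals are named here after their values were seen. On chromosome 4, 3 R probes of chr4:123572090-123581365 rose by 0.75 to 1.01 together with the transcript 4930535I16Rik inside it, by 0.99 on the same strand. Gm10572, also inside it, fell by 0.48. An F probe that overlaps the most changed of these R probes by 50 bases had a log2 difference of 0.01 (adjusted p = 0.983). Mycbp, 7.77 kb away, which encodes a MYC-binding protein, fell by 0.36, and Rragc, a GTPase of nutrient sensing 32.4 kb away, rose by 0.32. In chr4:129376440-129391690 a pair of R probes rose, the first with 8.47, 8.51, 8.71 and 8.45 in FD and 7.47, 7.40, 7.41 and 7.28 in wildtype samples (log2 difference 1.14, SE 0.076, adjusted p = 0.000104 in limma). Khdrbs1, an RNA-binding protein gene 0.501 kb away on the same strand, did not follow (log2 difference -0.03, adjusted p = 0.917), and Iqcc, Ccdc28b and Tmem234, 79.9 to 91.5 kb away, fell by 1.04, 0.76 and 0.40.

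The nearest tested gene, or a gene of the same region, was a known noncoding gene in the next cases. A probe of chr19:5771425-5848475_F, an interval that spans Neat1 and Malat1, had 6.64, 7.04, 6.45 and 6.63 in FD and 5.62, 5.87, 5.54 and 5.66 in wildtype samples (log2 difference 1.02, SE 0.13, adjusted p = 0.004 in limma). It was the 1 called probe of the 14 tested on F in that region, and the 10 tested on R had log2 differences of -0.16 to -0.01 with none called. Malat1 had 0.01 and Neat1 -0.14. The chr9:41300137-41301556_F probe, 96.8 kb from the microRNA host gene Mir100hg, had 8.05, 8.16, 8.21 and 7.98 in FD and 7.14, 7.28, 7.11 and 7.19 in wildtype samples (log2 difference 0.92, SE 0.07, adjusted p = 0.000259). In the imprinted region from Dlk1 to Dio3 on chromosome 12, 1 of 36 tested F probes and 1 of 17 tested R probes were called, with 0.43 and 0.62, and Meg3 had 0.01. An R probe of chr14:115423660-115463160, an interval that holds the microRNA host gene Mir17hg, fell by 0.59 (adjusted p = 0.0272). It was the 1 called of 3 tested R probes there, whose log2 differences ranged from -0.59 to 0.38. The Mir17hg probe, on F, had a log2 difference of 0.

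Probes of 1 strand interval gave partly the same reading. Of 1221 strand intervals with 2 or more tested probes, 78 had a called probe, 23 had 2 or more, 13 had every tested probe called and 0 had calls in both directions. In 61 of the 78 all tested probes had the same sign. Of the 145 tested but uncalled probes beside a called one, 120 had its sign. Sign agreement was not counted over all 1221 strand intervals, so these counts are not read as particular to called ones. Probes of 1 interval share their samples and are not replicates.

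Beside the tested probes, 28 interval probes were well above background on all 4 arrays of 1 group and on none of the other. Of these, 21 were detected in FD and 7 in wildtype. Such a count was not made over all probes of the array, so the split is not read as particular to interval probes. The bounds were small in FD: 1 of the 21 was more than 2-fold, chr17:6426800-6528950_R in the Tmem181 region, at least 2.96-fold higher in FD. In wildtype 5 of the 7 passed 2-fold. Of these 3 were the Gnl1 probes given above, and the others were chr9:41368823-41369514_F, at least 2.69-fold, and chr14:33923944-34003394_R, at least 2.05-fold higher in wildtype. With probes kept at 4 of 8 arrays, limma gave the last 2 an adjusted p of 0.147 and 0.0099 and the FD probe one of 0.000901. With normexp correction the bounds of the FD probe and of these 2 dropped to 1.55-fold, 1.59-fold and 1.23-fold. Slide row and group overlap here too: 3 of the 4 FD samples lay in row 1 and FD 4 in row 2. The part of the slide row in the 21 detected only in FD was not tested.

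The second comparison asked whether the strands of 1 interval changed alike. For the 392 intervals tested on both, the mean of the F probes minus the mean of the R probes was formed per array, and its difference between groups was tested with limma. Only the change of this value between groups is read, since brightness is not comparable between probes. It was called in 4 intervals (1.02%), and 51 (13%) had an unadjusted p under 0.05. The median absolute difference was 0.158 and the median standard error 0.15. Across these intervals the changes of F and R had a Pearson r of 0.02 and a Spearman rho of -0.01, where the 392 points share the same 8 arrays. A called probe was found on F alone in 16 intervals, on R alone in 14 and on both strands in 4. For the 30 with calls on 1 strand alone, the difference between strands was called in 1. With normexp background correction, or with probes kept at 4 of 8 arrays, 13 intervals were called, and the methods' t-test called 0.

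The strands differed most in chr5:110424250-110443025, the Zfp932 interval. F minus R was 2.06, 1.38, 1.70 and 2.28 in FD and 3.39, 3.57, 3.35 and 3.64 in wildtype samples, a change of -1.63 (SE 0.19, adjusted p = 0.00186 in limma). F fell by 1.08 over 2 probes, while R was 1 probe with 0.55, not called. The groups of the R probe overlapped, with 5.89 to 6.62 in FD and 5.67 to 6.00 in wildtype samples. Its difference was 0.76 within row 1 and 0.10 within row 2. In chr6:47595238-47601893, 115 kb from Ezh2, which encodes the H3K27 methyltransferase of Polycomb repressive complex 2, R fell further than F, and F minus R was 0.19 to 0.57 in FD and -1.07 to -0.39 in wildtype samples (change 0.91, adjusted p = 0.0392). Both strands were called there: the R probe starting at 47601672 had 6.57, 5.93, 5.98 and 6.08 in FD and 8.20, 7.89, 7.47 and 8.09 in wildtype samples (log2 difference -1.77, adjusted p = 0.00159, with -2.04 and -1.74 within rows 1 and 2), and the F probe that covers 57 of its bases had -0.81 (adjusted p = 0.0268). Ezh2 fell by 0.62 (adjusted p = 0.0167).

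The other pairs were weaker. F minus R in chr2:35828611-35838083 was -0.68 to -0.41 in FD and -0.04 to 0.92 in wildtype samples (change -0.99, adjusted p = 0.0392 in limma). In chr14:33895294-33923644 it was 0.99 to 1.51 in FD and 0.27 to 0.53 in wildtype samples (change 0.72, adjusted p = 0.0392). No single probe of these 2 intervals was called, and R was 1 tested probe in each. At the chromosome 2 locus, tested R probes, overlapping intervals included, ranged from -0.06 to 0.67, and the probe used had 0.67. In chr1:94608820-94634671 the change was 0.59 (adjusted p = 0.0573). Of the 4 intervals called on both strands, chr6:135294099-135300310 had a change of 0.53 (adjusted p = 0.0573), chr19:56820850-56837925 of -0.17 (adjusted p = 0.481) and chr17:35080914-35090009, 8.78 kb from the sialidase gene Neu1, of 0.08 (adjusted p = 0.787). In the last, the called F and R probes overlap by 33 bases and rose by 0.39 and 0.40, and Neu1 rose by 0.43 (adjusted p = 0.00644).

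**Figure D4:**
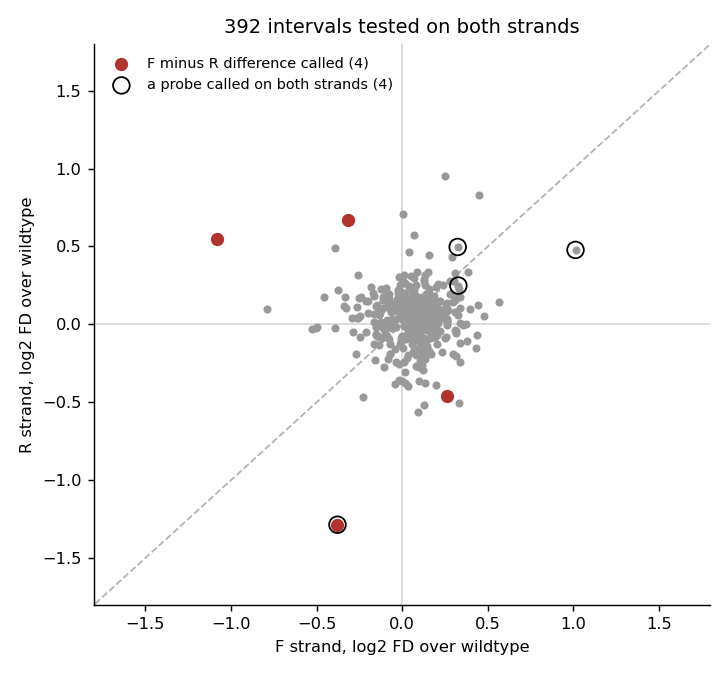
Log2 difference of FD over wildtype on the F strand (x axis) and the R strand (y axis), each the mean of the strand's tested probes, for the 392 intervals tested on both. Red points are the 4 intervals whose F minus R difference was called, rings the 4 with a called probe on both strands, and the dashed line is equal change.

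Overlapping probes allow a closer look at the strands. F and R probes of 1 interval that overlap by at least 30 bases formed 1556 pairs, of which both were tested in 151, F alone in 279 and R alone in 314. Of the 151, 82 (54.3%) had the same sign, beside 54.8% of 2427 tested pairs without overlap. Either probe was called in 7 and both in 2, those of the Ezh2 and Neu1 intervals above. In the other 5 the uncalled probe had the sign of the called one. Over the 151 pairs Pearson's r was 0.22 and Spearman's rho 0.10.

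The third comparison set called intervals beside neighbouring genes, each represented by its brightest tested probe. The nearest tested gene was called for 19 of 101 called strand intervals (18.8%), beside 100 of all 2363 tested strand intervals (4.23%), and 542 of 16217 genes (3.34%) were called. In 10 of the 19 the gene's probe lay inside the interval, 8 of them on its own strand, so gene and interval may not be separate readings. Overlapping intervals, such as those of Gm4924, were counted each. A called gene lay within 100 kb of 25 of the 101 (24.8%), beside 197 of the 2363 (8.34%). The 19 strand intervals held 32 called probes, of which 28 moved in the same direction as the gene and 4 in the opposite one. Several of these probes come from 1 interval or locus, as at Gm4924, and are not separate agreements. Among the latter was the chr16:40096026-40097242_F probe, which rose by 1.34 (adjusted p = 0.00197 in limma) 24.2 kb from Gm16498, which fell by 0.69 (adjusted p = 0.00808). Without FD 1 a called gene lay within 100 kb of 16 of 50 called strand intervals, and without FD 2 of 15 of 46. Fewer probes were called over the whole array in these fits. The share over all tested strand intervals was not counted there, so no excess is read from these counts.

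Called intervals also lay closer to genes. The median distance to the nearest tested gene was 4.28 kb for called and 14.8 kb for all tested strand intervals. Of the 101, 58 (57.4%) held no probe of a named gene, 29 (28.7%) held 1 or more on their own strand and 14 only on the other. Of the 2363, 72.7% held none and 18.2% held 1 or more on their own strand. The nearest gene was a zinc finger gene of the Zfp series for 8 of the 101 (7.92%), beside 121 of the 2363 (5.12%), a count made after the values were seen. These are counts over the same 8 arrays, with no test.

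**Figure D5:**
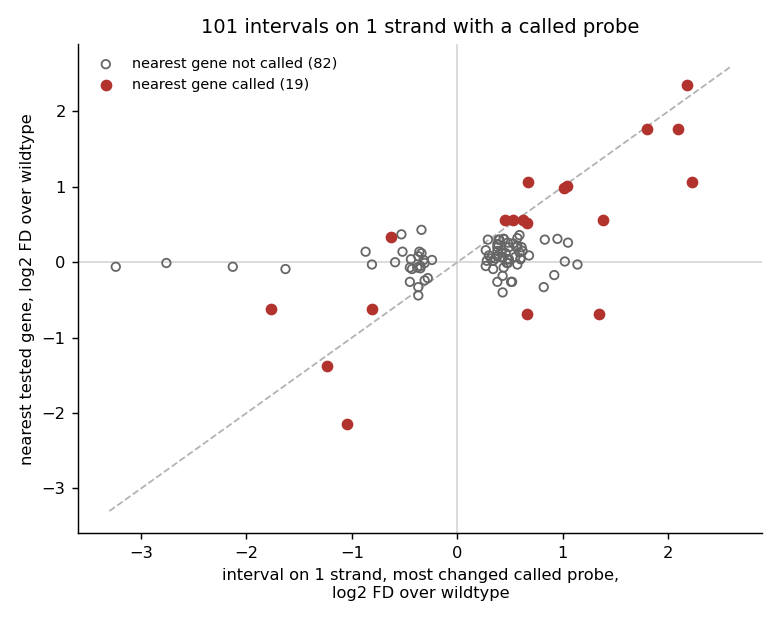
Log2 difference of FD over wildtype of the most changed called probe in each of the 101 strand intervals (x axis) and of the nearest tested gene (y axis). Red points are the 19 whose nearest gene was called and open circles the 82 where it was not, and the dashed line is equal change; the 3 largest falls have a nearest gene near 0.

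The fourth comparison looked at annotated noncoding RNAs and at the RNA exosome. Of 51 listed noncoding RNA genes 30 were tested and 0 were called in limma, beside 542 of all 16217 tested genes (3.34%). At an unadjusted p under 0.05, 2 were higher and 1 lower, and the methods' t-test called 0. The unadjusted count was not made over all genes. Their median log2 difference was 0.01, beside 0.019 over all probes. The smallest adjusted p-values were those of Airn, the imprinted antisense transcript of Igf2r, with a log2 difference of -0.22 (adjusted p = 0.136), and of the snoRNA host genes Snhg12 (0.26, adjusted p = 0.183), Gas5 (0.47, adjusted p = 0.245) and Snhg3 (0.18, adjusted p = 0.333). Of 27 listed genes of the exosome and its cofactors 26 were tested and 0 were called, with 2 higher and 1 lower unadjusted, 0 by the t-test, and a median of 0.03. At a share of 3.34%, lists of this size hold few calls, so 0 called is not read as particular to either list. Exosc9, a core subunit, had 0.25 (adjusted p = 0.155), and Dis3l, the cytoplasmic exosome nuclease, -0.15 (adjusted p = 0.266). Ncbp1 of the cap-binding complex had 0.14 (adjusted p = 0.271), and Exosc10, the nuclear exosome nuclease, -0.14 (adjusted p = 0.392).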

How the data were processed

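RNA of 8 DRG samples was labelled with Cyanine-3 and hybridised to 8 arrays of 60-mer probes. The deposited scanner files hold background-subtracted intensity values per spot, and their headers name Agilent Feature Extraction 10.7.3.1. The authors also deposited a table of quantile-normalised log2 values, which was used as an alternative (each column has a median of 8.0744 and correlates at 0.9999 or above with its own array).

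Here log2 intensities were quantile normalised in limma 3.58.1 (R 4.3.3), probes well above background on all 8 arrays were kept, outlier spots (93 to 221 per array) were left out, and FD was compared with wildtype in 1 fit over all 29432 tested probes with Benjamini-Hochberg adjustment. A probe is called at an adjusted p under 0.05. F minus R values were fitted in the same way over 392 intervals. Bounds set the group mean that is above background against, per array, the higher of the lowest signal well above background and the probe's own value. Gene names came from RefSeq accessions or from the file, positions (mm9) from the files, and 118 interval probes had none. Of the interval probes, 74 share their 60 bases with a probe of another name. The limma fit was tested on simulated data.

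The text names the 8 largest called rises and the 8 largest called falls without overlap between groups, every interval called on both strands, the 5 intervals with the smallest adjusted p for F minus R, up to 6 bounds, the nearest and called genes beside them and up to 4 members of each list. The members, lists and rules were chosen with earlier results of these data known. The 4 samples of a group are separate pools of mice, and p-values measure the spread between pools. The number of arrays limits the precision. Alternatives were 75th percentile scaling, normexp background correction (offset 50), a filter of 4 of 8 arrays or none, the methods' t-test (unequal variances), the replicate number or the slide row as a block, leaving out each sample, and the authors' table.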

Additional observations from a re-analysis of the deposited data

Results flagged for a closer look

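In 110 groups of 4 samples checked for 1 sample far from the other 3, 5 were marked, and chance marks about 1 in 20 groups. Wildtype 1 had 7.51 at the chr6:90745692-90777977_F probe, beside 8.01 to 8.10 in the other wildtype samples. Wildtype 3 had 6.00 at the R probe of chr5:110424250-110443025 starting at 110425550, beside 5.67 to 5.70. FD 4 had 6.52 at the R probe of chr2:35828611-35838083, beside 6.34 to 6.36 in the other FD samples. FD 3 had 7.52 at an F probe of chr17:35080914-35090009, beside 7.81 to 7.87, and 7.03 at an R probe of the same interval, beside 6.36 to 6.45. The last pair of probes was not called.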

How the results depend on the processing

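The number of calls was 125 with 75th percentile scaling, 144 with normexp correction, 134 with the 4 of 8 filter, 94 without a filter, 128 with the slide row as a block and 98 in the authors' table. It was 24 with the methods' t-test and ranged from 62 to 149 when 1 sample was left out. The lowest of that range was 1.28% of interval probes beside 1.39% of all tested probes, without FD 2. The highest was 3.07% beside 3.54%, without wildtype 1. The shares called of interval probes and of all tested probes were 2.58% and 3.16% with 75th percentile scaling, 2.97% and 3.7% with normexp, 2.23% and 2.62% with the 4 of 8 filter, 0.606% and 1% without a filter, 2.64% and 2.8% with the slide row, 1.18% and 1.58% in the authors' table and 0.495% and 0.904% with the t-test. Of the 16 probes with the largest changes, the t-test lost 8: all 3 of chr17:6830756-6832322_R, both of chr12:117623500-117643575_R, 1 of 3 of chr10:81816994-81863610_F (adjusted p = 0.054), and those of chr2:151343784-151344246_F and chr5:110424250-110443025_F. All 16 stayed called under the other alternatives.

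Same-numbered samples did not deviate together (correlations of 0.06, -0.25, -0.05 and -0.02), so they share only a number. With the replicate block 36 interval probes (0.743%, beside 0.965% of all tested probes) and 1 F minus R difference were called. A called gene then lay within 100 kb of 10 of 27 called strand intervals, and the share over all tested strand intervals was not counted.

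F minus R calls numbered 13 with normexp correction, 13 with the 4 of 8 filter, 0 with the t-test and 1 to 3 with 1 sample left out, so these 4 calls depend on the setting. Uncalled F minus R changes reversed without a filter in chr1:94608820-94634671 (-0.05) and chr17:35080914-35090009 (-0.06), the latter also in the authors' table (-0.10). A called gene lay within 100 kb of 6 of 22 called strand intervals with the t-test. With 1 sample left out it was from 15 of 46 (without FD 2) to 30 of 117 (without wildtype 1). The share over all tested strand intervals was not counted under these alternatives, so no excess is read from these counts. The listed noncoding RNA and exosome genes had 0 calls under every alternative. Normexp lowered the bounds, that of chr17:36136010-36136696_F to 2.55-fold. The cause of these shifts was not tested. Of the interval probes, 7361 were never above background, so a change in them was not detectable here.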
